A study of Mus musculus with 6 samples.

Results

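The genes described here are 35 genes of fatty acid and triglyceride synthesis: 4 regulators of lipogenesis, the enzymes that supply carbon and build, lengthen and desaturate fatty acids, and the enzymes that join fatty acids to glycerol. They were taken by name, through the gene identifiers of the count table, and all 35 were found among its 41388 identifiers. Liver RNA of 6-week-old mice was sequenced to compare Atp7b-/- mice, which lack the copper-exporting ATPase affected in Wilson disease, with wild type mice. There were 3 Atp7b-/- and 3 wild type libraries, all on the mixed C57BL x 129S6/SvEv background and a diet with 16 ppm copper, with no other allele or agent in the labels. Atp7b-/- libraries 1 and 2 were single-end and labelled male, and Atp7b-/- library 3 was paired-end and labelled female. Wild type library 1 was paired-end and labelled male, and wild type libraries 2 and 3 were single-end and labelled female. The sources used here give neither the part of Atp7b that was targeted nor the hour at which livers were taken.

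As background, the liver turns surplus carbohydrate into fat. Citrate leaves the mitochondrion and is cut to acetyl-CoA, acetyl-CoA carboxylase makes malonyl-CoA, fatty acid synthase assembles palmitate from it, elongases and desaturases modify the chain, and acyltransferases, lipins and DGAT enzymes build triglyceride. The transcription factor SREBP1 (gene Srebf1), which responds to insulin and to the oxysterol receptor LXR, and ChREBP (gene Mlxipl), which responds to sugar phosphates, raise many of these genes together in mouse liver.

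Before the results, some facts of the libraries bear on all of them. Total counts were 16597683, 6746192 and 25973968 in Atp7b-/- libraries 1 to 3 and 23651080, 12258024 and 5919389 in wild type libraries 1 to 3. The unit CPM gives each gene's reads relative to the TMM-adjusted depth of its library, and 3 counts, the limit that a count of 0 allows, correspond to 0.103 to 0.555 CPM (counting error only). Atp7b stood at 19.2, 13.8 and 13.3 CPM in the Atp7b-/- group, against 25.3, 85.2 and 59.7 CPM in the wild type group, and it fell by 1.73 on the log2 scale (adjusted p = 0.02). Its adjusted p was 0.0969, 0.0664 and 0.0686 without Atp7b-/- library 1, Atp7b-/- library 2 or wild type library 3. Its lowest wild type value is that of the paired-end library. The labelled sexes did not all match the sex-linked genes. Xist, transcribed from the inactive X chromosome of females, was at 0.117, 0.702 and 0.482 CPM in the Atp7b-/- group, against 1.01, 371 and 17.4 CPM in the wild type group. The Y-linked gene Ddx3y was at 29.5, 37.7 and 126 CPM in the Atp7b-/- group, against 161, 0.34 and 28.0 CPM in the wild type group. The 12 female-biased liver genes of a marker list summed to 591, 539 and 409.9 CPM in the Atp7b-/- group, against 319, 1790 and 157 CPM in the wild type group. Thus wild type library 2 alone showed the female pattern, while Atp7b-/- library 3 and wild type library 3, both labelled female, carried Y-linked RNA, and the leading log2 fold changes are also given without those 2 libraries. The library titles differ and some carry numbers, but the labels do not state that each library came from its own animal. A p-value here therefore measures the spread between libraries, part of which may be technical.

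The promoters of 3 members are shown because Srebf1, Pklr and Fasn were among the 5 members with the smallest p-values and are textbook cases of control by LXR and by ChREBP. The sequences are the 250 bases before an annotated start (RefSeq, build GRCm38.p6), written 5′ to 3′ on the strand of the gene. In Srebf1 and Fasn the capitals mark TGACC and TAACC with 5 bases between them, a spaced repeat of the kind bound by LXR with its partner RXR. In Pklr they mark CACGNG and CNCGTG with 5 bases between them, a spaced pair of E-box-like letters of the kind bound by ChREBP.
Srebf1, chr11:60210472-60210721, minus strand: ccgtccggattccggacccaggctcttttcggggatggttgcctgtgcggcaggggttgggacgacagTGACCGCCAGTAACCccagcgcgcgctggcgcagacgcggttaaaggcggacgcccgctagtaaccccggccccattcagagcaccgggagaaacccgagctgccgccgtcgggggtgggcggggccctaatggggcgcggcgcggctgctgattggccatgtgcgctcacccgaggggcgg
Fasn, chr11:120824548-120824797, minus strand: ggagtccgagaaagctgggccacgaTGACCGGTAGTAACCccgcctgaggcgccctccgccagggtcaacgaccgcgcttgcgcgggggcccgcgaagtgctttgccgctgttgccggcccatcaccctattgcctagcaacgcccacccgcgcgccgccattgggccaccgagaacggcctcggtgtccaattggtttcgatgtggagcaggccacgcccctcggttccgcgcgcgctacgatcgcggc
Pklr, chr3:89136373-89136622, plus strand: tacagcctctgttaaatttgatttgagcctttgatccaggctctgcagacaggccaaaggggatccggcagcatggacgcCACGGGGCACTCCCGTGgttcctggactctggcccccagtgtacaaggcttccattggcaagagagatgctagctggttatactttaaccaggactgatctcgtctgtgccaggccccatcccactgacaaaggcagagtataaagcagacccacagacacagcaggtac

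In Srebf1 the match lay 182 to 168 bases before the start, in Fasn 225 to 211 and in Pklr 170 to 154. The table held 28 of the 35 members, with 38 starts, among 32851 promoters in all, 3 starts being those of Srebf1 and 2 those of Pklr. Searched on both strands of such 250-base stretches, TGACC and TAACC at that spacing were found in 15 of all promoters (0.0457%) and in those of 3 members, the third being Acsl3. CACGNG and CNCGTG at that spacing were found in 13 of all promoters (0.0396%), Pklr being the sole member. The E-box CACGTG was found in 4 of the 38 member promoters and in 6.02% of all promoters. The pattern CACGNG can include it, but the match in Pklr does not, and Pklr was not among these 4. The letters TCACNCCAC, one form of the sterol response element, were found in 1 member promoter, that of Mlxipl, and in 1.05% of all promoters. CCAAT, bound by NF-Y, was found in 19 of the 38 member promoters (50%) and in 33.8% of all promoters. These matches describe letters in a window and are not measured binding. Both spaced patterns were written in a form that the promoters shown contain. The shares for members and for all promoters therefore cannot be read as enrichment, and none was tested. Fads1, Dgat2, Elovl3, Scd2, Gpat4, Dgat1 and Scd1 are not shown.

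By the fitted model Thrsp was 6.79-fold, Pklr 2.03-fold, Srebf1 2.00-fold, Fads2 1.77-fold and Fasn 1.69-fold lower in Atp7b-/- livers, but no member was called between genotypes. Of the 35 genes, 34 were measured, and 0 of 34 passed an adjusted p of 0.05, where 2.49% of all genes did. The test was the quasi-likelihood test of edgeR with layout as a term, with p-values adjusted by Benjamini-Hochberg over the 12988 genes tested. At an unadjusted p under 0.05 there were 9 of 34 members (26.5%), 7 lower and 2 higher in Atp7b-/- livers, against 14.5% of all genes (6.74% lower and 7.8% higher). The 7 were Srebf1, Fads2, Pklr, Fasn, Elovl2, Thrsp and Dgat2, and the 2 were Elovl1 and Me1. DESeq2 with the same terms called 5 members lower, Pklr, Thrsp, Srebf1, Fasn and Fads2, where it called 2.33% of all genes lower, and limma-voom called 0, its smallest adjusted p among the members being 0.0594 and its share of all genes 3.05%. The log2 fold change, Atp7b-/- over wild type, was negative for 24 members and positive for 10 (70.6% negative, against 50.9% of all genes). Its median was -0.28 over the members and -0.0087 over all tested genes. Without wild type library 2, the only library with the female pattern, that median was -0.093, with 21 of 35 log2 fold changes negative. Each library was also left out in turn, wild type library 2 among them. The log2 fold changes then lay between -3.74 and -2.24 for Thrsp and between -1.29 and -0.70 for Pklr. They lay between -1.33 and -0.76 for Srebf1, -0.93 and -0.65 for Fads2, and -0.87 and -0.54 for Fasn. Without Atp7b-/- library 3 and wild type library 3, the layout term takes up wild type library 1, the only paired-end one left. That fit therefore compares Atp7b-/- libraries 1 and 2 with wild type library 2 alone, the library with the female pattern, so sex and genotype cannot be told apart in it, and the lone library is assumed to vary like the others. There the median was -0.23, the log2 fold changes were -1.61 for Thrsp, -1.003 for Pklr, -1.38 for Srebf1, -0.996 for Fads2 and -1.13 for Fasn, and 1 of 34 members, Srebf1, passed the threshold, where 0.713% of all genes were called lower. With no filter on low counts 4 members were called (4.44% of all genes): Pklr, Srebf1 and Fads2 lower and Elovl1 higher.

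**Figure D1:**
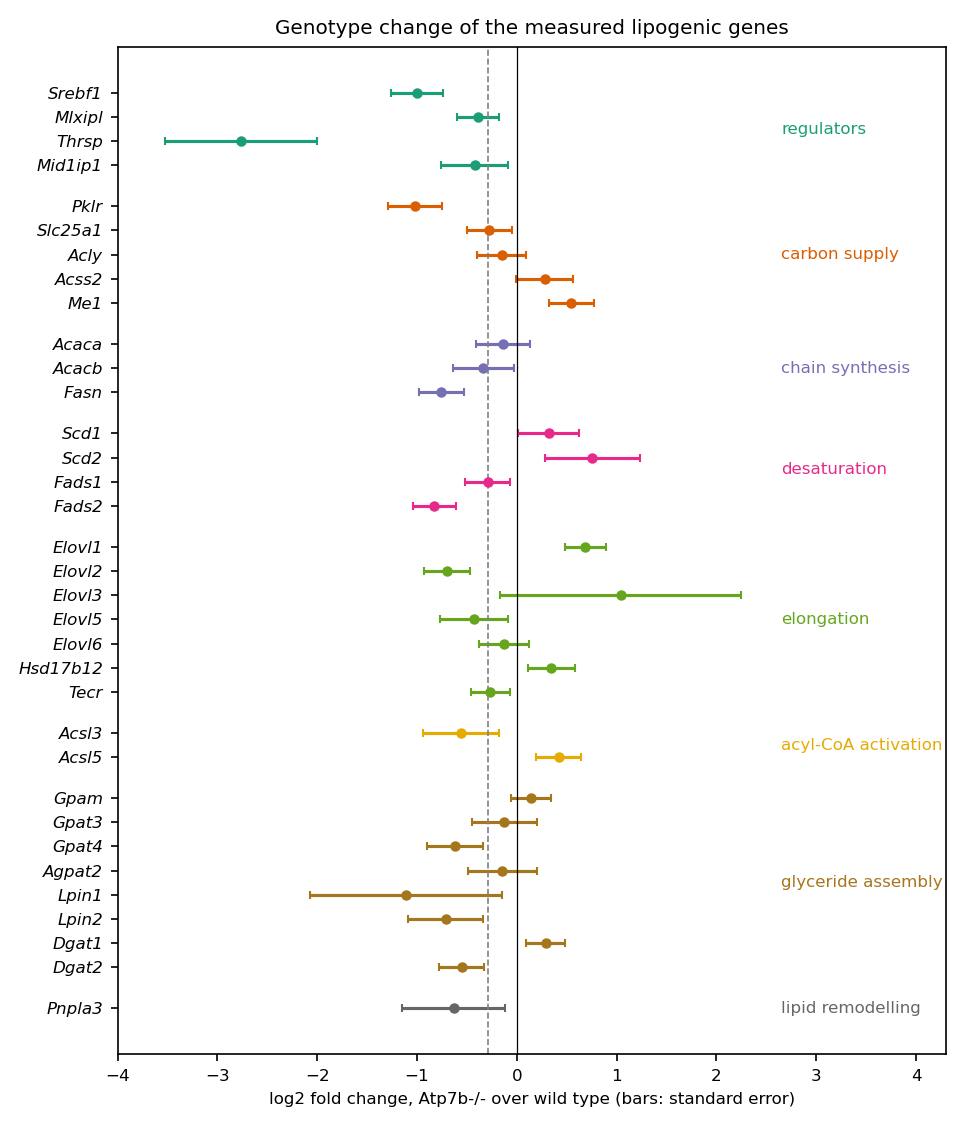
Log2 fold change (Atp7b-/- over wild type, x axis) of the 34 measured genes, grouped by role, with bars for the standard error. The dashed line is the members' median of -0.28, and all 4 regulators and all 3 genes of chain synthesis lie left of 0, although none passed the adjusted threshold.

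All 4 regulators had negative log2 fold changes, with a median of -0.71, and 2 of them, Srebf1 and Thrsp, had an unadjusted p under 0.05. Srebf1 (ENSMUSG00000020538, chr11:60199089-60222581, minus strand, GRCm38), which encodes SREBP1, was at 209.9, 287 and 146 CPM in Atp7b-/- libraries 1, 2 and 3, against 182, 645 and 609 CPM in wild type libraries 1 to 3. Both single-end wild type libraries stood above every Atp7b-/- library, but the paired-end wild type library lay within the Atp7b-/- range, so the groups overlapped. The log2 fold change was -1.002 (SE 0.26, adjusted p = 0.0997), with 214 ± 70.6 CPM in Atp7b-/- and 479 ± 257 CPM in wild type livers (SD, n = 3 each). With each library left out in turn it lay between -1.33 and -0.76, and Srebf1 did not pass in any of these 6 fits. A stretch of 109 exonic bases of Srebf1 is shared with Rai1 on the opposite strand, and the strand setting of the counting is not given.

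Thrsp, also called Spot 14, a small protein that promotes lipogenesis, had the lowest fold change. It was at 58.2, 259 and 41.5 CPM in the Atp7b-/- group, against 578, 482 and 1036 CPM in the wild type group. Every wild type library was above every Atp7b-/- library, and within the Atp7b-/- group library 2 stood well above the other 2. Its log2 fold change was -2.77 (SE 0.76, adjusted p = 0.2), the negative value farthest from 0 among the members. With each library left out in turn it lay between -3.74 and -2.24, and against wild type library 2 alone, as above, it was -1.61. Without Atp7b-/- library 2 it was -3.74 (adjusted p = 0.0039), and Thrsp was the sole member called there, where 0.369% of all genes were called lower.

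Mid1ip1, a partner of Thrsp that activates acetyl-CoA carboxylase, was at 73.2, 33.95 and 40.1 CPM in the Atp7b-/- group, against 37.4, 105 and 67.5 CPM in the wild type group. Mlxipl, which encodes ChREBP, was at 419.8, 344 and 222 CPM in the Atp7b-/- group, against 294, 419.8 and 575 CPM in the wild type group. For both genes the groups overlapped widely. The log2 fold changes were -0.42 for Mid1ip1 (SE 0.33, adjusted p = 0.632) and -0.39 for Mlxipl (SE 0.21, adjusted p = 0.45).

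**Figure D2:**
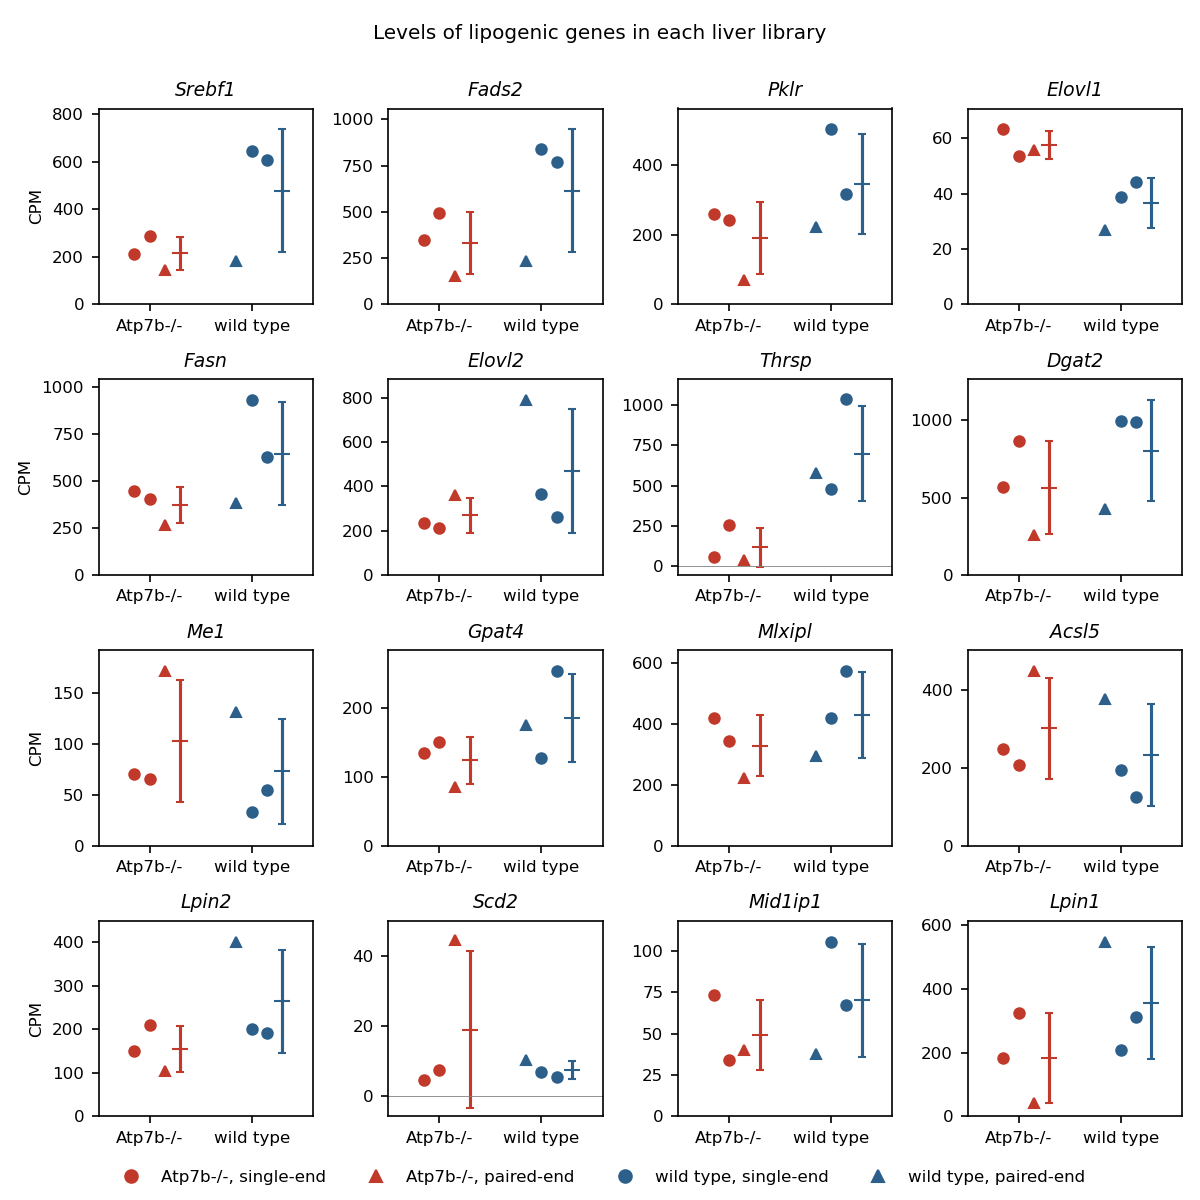
CPM (y axis, linear, a scale for each gene) of 16 genes in each library, Atp7b-/- left and wild type right, with circles for single-end and triangles for paired-end libraries, and the mean with its SD (n = 3) beside each group. Thrsp and Elovl1 are the panels in which the 2 groups do not overlap, and in Srebf1, Fads2, Pklr, Fasn, Dgat2 and Mlxipl the paired-end library is the lowest of each genotype.

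Among the genes that supply carbon, Pklr and Me1 had log2 fold changes of opposite sign. Pklr (ENSMUSG00000041237, chr3:89136142-89146784, plus strand), the liver pyruvate kinase and a textbook ChREBP target, was at 259, 242 and 70.2 CPM in the Atp7b-/- group, against 221, 502 and 316 CPM in the wild type group. Wild type library 1 lay below 2 of the Atp7b-/- libraries, but within each layout every Atp7b-/- library was lower. Its fitted log2 fold change was -1.02 (SE 0.27, adjusted p = 0.104), and without wild type library 3 it was -1.29 (adjusted p = 0.0277), Pklr then being the sole member called of 35, where 0.384% of all genes were called lower. Pklr shares 711 exonic bases with Hcn3 on the opposite strand, which was at 15.0, 6.45 and 1.69 CPM in the Atp7b-/- group, against 34.9, 14.02 and 12.4 CPM in the wild type group. Without the strand setting, reads of the shared bases cannot be told apart.

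Me1, the malic enzyme that supplies NADPH for fatty acid synthesis, was at 70.1, 65.8 and 172 CPM in the Atp7b-/- group, against 131, 33.1 and 55.1 CPM in the wild type group. The paired-end library was the highest of each genotype, and within each layout the Atp7b-/- libraries were higher. Its log2 fold change was 0.55 (SE 0.22, adjusted p = 0.306). The other 3 carbon supply genes had adjusted p-values from 0.636 to 0.835. The citrate carrier Slc25a1 averaged 312 ± 143 CPM in Atp7b-/- and 389 ± 224 CPM in wild type livers (SD, n = 3 each), a log2 fold change of -0.28. Acly, which cuts citrate to acetyl-CoA, averaged 294 ± 76.7 CPM in Atp7b-/- and 327 ± 47.7 CPM in wild type livers (-0.15). Acss2, which makes acetyl-CoA from acetate, averaged 216 ± 60.1 CPM in Atp7b-/- and 178 ± 47.5 CPM in wild type livers (0.28).

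All 3 genes of chain synthesis had negative log2 fold changes, with a median of -0.34. Fasn (ENSMUSG00000025153, chr11:120805846-120824547, minus strand), fatty acid synthase, was at 446, 402 and 264 CPM in the Atp7b-/- group, against 379, 928 and 625 CPM in the wild type group. The 2 single-end wild type libraries were the highest of the 6, and the paired-end pair came lowest, with Atp7b-/- library 3 under wild type library 1. The log2 fold change was -0.76 (SE 0.22, adjusted p = 0.143), with 371 ± 94.9 CPM in Atp7b-/- and 644 ± 275 CPM in wild type livers (SD, n = 3 each). For both acetyl-CoA carboxylases the difference in means was smaller than the SD of either group. Acaca, the cytosolic form that feeds synthesis, averaged 35.6 ± 14.7 CPM in Atp7b-/- and 38.1 ± 15.7 CPM in wild type livers (log2 fold change -0.14, adjusted p = 0.869). Acacb, the mitochondrial form whose product restrains fatty acid oxidation, averaged 74.7 ± 33.2 CPM in Atp7b-/- and 99.7 ± 75.4 CPM in wild type livers (-0.34, adjusted p = 0.679).

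The desaturases were divided. Fads2 (ENSMUSG00000024665, chr19:10062765-10101746, minus strand), which starts the synthesis of long polyunsaturated fatty acids, was at 349.7, 491 and 153 CPM in the Atp7b-/- group, against 232, 838 and 769.8 CPM in the wild type group. As with Srebf1, the single-end wild type libraries stood above all Atp7b-/- libraries and the paired-end libraries were the lowest of each genotype. That is a fitted log2 difference of -0.82 (SE 0.22, adjusted p = 0.0998). Its neighbour Fads1, the next desaturase of that route, averaged 431 ± 68.9 CPM in Atp7b-/- and 534 ± 156 CPM in wild type livers (-0.29, adjusted p = 0.617).

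Scd1, the desaturase that makes oleate from stearate and a textbook SREBP1 target, was not among the genes with negative values. Its CPM was 4115, 3122 and 2383 in the Atp7b-/- group, against 2207, 3680.1 and 1710.1 in the wild type group, and the log2 fold change was 0.32 (SE 0.30, adjusted p = 0.693). The highest and the lowest library were Atp7b-/- library 1 and wild type library 3, with the others mixed between them. Scd2, its close relative, was at 4.66, 7.44 and 44.7 CPM in the Atp7b-/- group, against 10.4, 6.71 and 5.38 CPM in the wild type group. Atp7b-/- library 3 alone stood out for Scd2, and the log2 fold change of 0.76 (SE 0.48, adjusted p = 0.53) became -0.025 without it. The Scd genes lie side by side on chromosome 19 and are close in sequence, so reads could be split between them, and Scd1 and Scd2 are uncertain as single genes to that degree.

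Among the elongation genes, Elovl1 and Elovl2 had log2 fold changes of opposite sign. Elovl1 (ENSMUSG00000006390, chr4:118428093-118432953, plus strand), an elongase of very long saturated chains, was at 63.2, 53.6 and 55.9 CPM in the Atp7b-/- group, against 26.8, 38.7 and 44.3 CPM in the wild type group. All 3 Atp7b-/- libraries were above all 3 wild type libraries, and the log2 fold change was 0.69 (SE 0.20, adjusted p = 0.141). Elovl1 shares 53 exonic bases at its end with Cdc20 on the opposite strand, a gene needed for chromosome separation in mitosis. Cdc20 was at 37.1, 32.1 and 28.4 CPM in the Atp7b-/- group, against 0.594, 1.27 and 2.78 CPM in the wild type group, and it rose by 4.67 on the log2 scale (adjusted p = 0.000951). Its part in the Elovl1 difference was not tested. In all, 16 of the 35 members share exonic bases with another gene, 13 of them with one on the opposite strand.

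Elovl2, an elongase of polyunsaturated chains, was at 234, 211 and 360.1 CPM in the Atp7b-/- group, against 788, 365 and 259 CPM in the wild type group. Wild type library 1 was by far the highest, and wild type library 3 lay within the Atp7b-/- range. The log2 fold change was -0.70 (SE 0.23, adjusted p = 0.192). Elovl3, which is male-biased in mouse liver, averaged 104 ± 99.8 CPM in Atp7b-/- and 74.7 ± 99.3 CPM in wild type livers (1.04, SE 1.21, adjusted p = 0.777), and it was lowest, at 2.29 CPM, in wild type library 2, the library with the female pattern.

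The other 4 elongation genes did not pass the test. Elovl5, which extends polyunsaturated chains, averaged 331 ± 117 CPM in Atp7b-/- and 452 ± 192 CPM in wild type livers (-0.43). Elovl6, which extends palmitate to stearate, averaged 50.7 ± 18.4 CPM in Atp7b-/- and 61.4 ± 42.5 CPM in wild type livers (-0.13). Hsd17b12 and Tecr catalyse the reduction steps of each elongation cycle. Hsd17b12 averaged 145 ± 50.1 CPM in Atp7b-/- and 129.6 ± 94.1 CPM in wild type livers (0.35), and Tecr 238 ± 109 CPM in Atp7b-/- and 302 ± 162 CPM in wild type livers (-0.27). Their adjusted p-values lay between 0.562 and 0.871.

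The acyl-CoA synthetases, which activate fatty acids, had opposite signs. Acsl5 was at 248, 208 and 449 CPM in the Atp7b-/- group, against 378, 196 and 125 CPM in the wild type group. The paired-end library was the highest of each genotype and the groups overlapped, with a fitted log2 difference of 0.42 (SE 0.23, adjusted p = 0.451). Acsl3 averaged 15.5 ± 14.4 CPM in Atp7b-/- and 18.2 ± 7.67 CPM in wild type livers (-0.56, adjusted p = 0.566).

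In glyceride assembly, 6 of 8 measured genes had negative log2 fold changes, with a median of -0.35, and 1 of them, Dgat2, had an unadjusted p under 0.05. Dgat2, which completes triglyceride in hepatocytes, was at 569, 863 and 259 CPM in the Atp7b-/- group, against 426, 994 and 987 CPM in the wild type group. The single-end wild type libraries were the highest of the 6, and Atp7b-/- library 2 came next. Fitted over both layouts, the log2 fold change was -0.55 (SE 0.22, adjusted p = 0.301). The related enzyme Dgat1 averaged 35 ± 9.81 CPM in Atp7b-/- and 29.4 ± 11.4 CPM in wild type livers (0.29, adjusted p = 0.554).

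The glycerol phosphate acyltransferases catalyse the committed step. Gpat4 was at 135, 152 and 85.2 CPM in the Atp7b-/- group, against 176, 127 and 254 CPM in the wild type group. The lowest library was Atp7b-/- 3 and the highest wild type 3, with the others mixed, and the log2 fold change was -0.62 (SE 0.28, adjusted p = 0.36). Gpam, the mitochondrial enzyme and a textbook SREBP1 target, averaged 135 ± 25.2 CPM in Atp7b-/- and 125 ± 36.1 CPM in wild type livers (0.14, adjusted p = 0.812). Gpat3 averaged 10.4 ± 4.28 CPM in Atp7b-/- and 12.3 ± 9.5 CPM in wild type livers (-0.12, adjusted p = 0.906). Agpat2, which adds the next acyl chain, averaged 162 ± 46.0 CPM in Atp7b-/- and 186 ± 103 CPM in wild type livers (-0.14, adjusted p = 0.895).

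The lipins are phosphatases that make diacylglycerol. Lpin1 was at 183, 323 and 42.8 CPM in the Atp7b-/- group, against 547, 208 and 311 CPM in the wild type group. The paired-end libraries were the lowest and the highest of the 6, while the single-end libraries of the 2 genotypes overlapped. The log2 fold change was -1.11 (SE 0.96, adjusted p = 0.681), made up of -3.68 between the paired-end libraries and -0.03 between the single-end ones. Lpin2 was at 151, 209 and 105 CPM in the Atp7b-/- group, against 401, 199.7 and 193 CPM in the wild type group. Again the paired-end libraries were the extremes, and the log2 fold change was -0.71 (SE 0.38, adjusted p = 0.453).

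Some members were close to the detection limit. Mogat1, a monoacylglycerol acyltransferase, did not pass the filter on low counts, at 0.525, 0.702 and 1.17 CPM in the Atp7b-/- group, against 0.594, 0.34 and 0 CPM in the wild type group, where the count of 0 in library 3 allows up to 0.555 CPM. Pnpla3, a lipid-remodelling enzyme that SREBP1 and ChREBP induce in mouse liver, averaged 1.21 ± 1.28 CPM in Atp7b-/- and 1.6 ± 0.579 CPM in wild type livers (-0.63, SE 0.52, adjusted p = 0.639).

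Read layout moved with the levels of many genes, members or not. The layout term of the fit was called for 20 of 34 members (58.8%) and for 52.8% of all genes. Within both layouts 16 members were lower (47.1%, against 29.5% of all genes) and 7 higher (20.6%, against 28.6%) in Atp7b-/- livers. The other 11 had opposite signs, so that 67.6% kept 1 sign, against 58.1% of all genes. The difference of the genotype change between layouts, single-end minus paired-end, was 3.64 for Lpin1 (SE 0.62, adjusted p = 0.273), 1.81 for Lpin2 (SE 0.44, adjusted p = 0.651) and -2.15 for Scd2 (SE 0.55, adjusted p = 0.741). With the edgeR test 0 of 34 members were called for this difference, where 0.0154% of all genes were, and these 3 were the members with an unadjusted p under 0.05. DESeq2 called 1 member, Lpin1, for this difference (0.638% of all genes), and limma-voom 0 (0.0077%). Lpin1 was also called without wild type library 2 (0.333% of all genes) and without wild type library 3 (1.02%), and with no filter on low counts Lpin1 and Lpin2 were (0.633%). Because labelled sex follows genotype in opposite directions within the layouts, layout and labelled sex cannot be told apart in this term. Each layout of a genotype holds 1 or 2 libraries, and the test measures the spread between the single-end libraries alone.

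**Figure D3:**
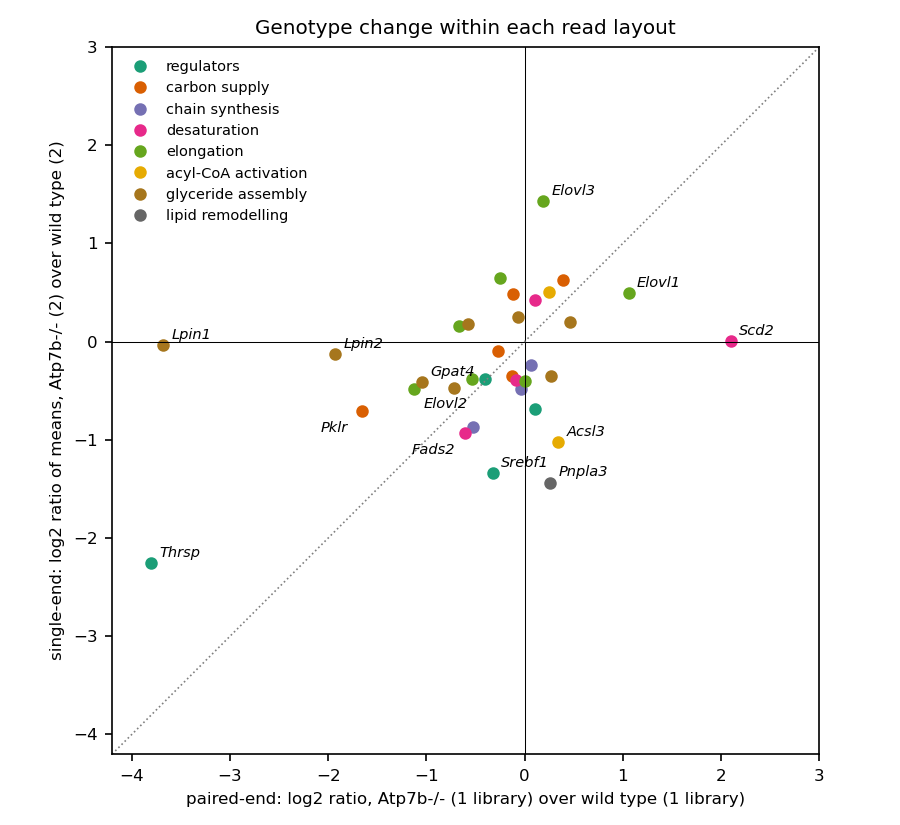
Log2 ratio of Atp7b-/- over wild type in the paired-end libraries (x axis, 1 library each) and in the single-end libraries (y axis, means of 2 each) for the 34 measured genes, coloured by role, with the dotted line where both are equal. Thrsp is low in both layouts (-3.80 paired-end and -2.26 single-end), whereas Lpin1 and Lpin2 lie near 0 on the single-end axis alone and Scd2 far to the right.

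Across libraries, 2 of 34 members had CPM ranges that did not overlap between genotypes, Thrsp lower and Elovl1 higher in Atp7b-/- livers, against 8.51% of all genes. The single-end libraries alone gave 14 of 34 (46.1% of all genes), and without Atp7b-/- library 3 and wild type library 3 there were 9 of 34 (28.2% of all genes). Both of these counts compare 2 libraries with 2. Atp7b-/- library 3 was the lowest of the 6 libraries for 13 of the 34 members, and the highest for 7. The levels of the 35 genes summed to 10608, 9553 and 7372 CPM in the Atp7b-/- group, against 9823, 13003 and 10768 CPM in the wild type group, and these ranges overlapped. Scd1 made up 38.8%, 32.7% and 32.3% of that sum in the Atp7b-/- group, against 22.5%, 28.3% and 15.9% in the wild type group. The other 34 genes summed to 6493, 6430.4 and 4989 CPM in the Atp7b-/- group, against 7616, 9323 and 9058 CPM in the wild type group, which did not overlap. Leaving Scd1 out was chosen after its values were seen, so that sum carries no test.

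**Figure D4:**
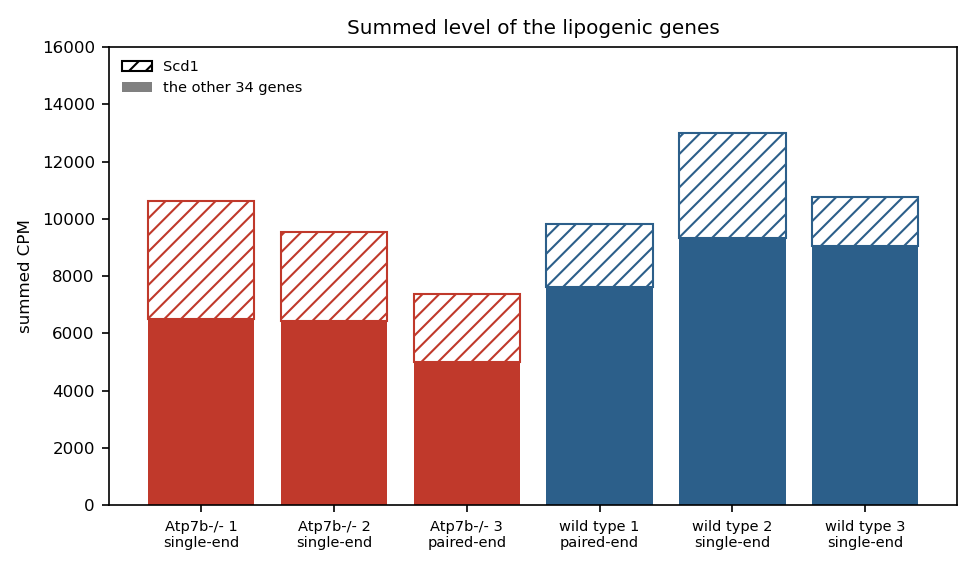
Summed CPM (y axis) of the 35 lipogenic genes in each library (bars, Atp7b-/- red and wild type blue), with Scd1 hatched on top of the other 34 genes. The solid parts reach 4989 to 6493 CPM in the Atp7b-/- group and 7616 to 9323 CPM in the wild type group, while the hatched part is largest in Atp7b-/- library 1.

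Levels per length of exon give an order of the members, of which the ends are described here. Scd1 was the most abundant, at 656 CPM per kb in Atp7b-/- and 518 CPM per kb in wild type livers. Dgat2 followed in Atp7b-/- livers, at 183 CPM per kb in Atp7b-/- and 260.2 CPM per kb in wild type livers, and Fads2, Slc25a1, Tecr, Fads1, Elovl5 and Elovl2 lay between 67.7 and 144 CPM per kb in Atp7b-/- livers and between 111 and 186 CPM per kb in wild type livers. Agpat2, at 76.1 CPM per kb in Atp7b-/- and 87.2 CPM per kb in wild type livers, lay within the first of these ranges and below the second. Thrsp came second in wild type livers, at 54.6 CPM per kb in Atp7b-/- and 319 CPM per kb in wild type livers. At the other end Acaca was at 2.09 CPM per kb in Atp7b-/- and 2.23 CPM per kb in wild type livers. Scd2 was at 3.47 CPM per kb in Atp7b-/- livers and, below Acaca, at 1.37 CPM per kb in wild type livers. Pnpla3 was at 0.782 CPM per kb in Atp7b-/- and 1.03 CPM per kb in wild type livers. Mogat1 was at 0.513 CPM per kb in Atp7b-/- and 0.2 CPM per kb in wild type livers. Differences between neighbours in this order were not tested, and within a genotype the libraries of Thrsp, Scd2, Lpin1 and Elovl3 lay several-fold apart.

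The remaining genes of the pathway gave no call either. In the list of other lipogenic enzymes, 26 of 31 genes were measured and 0 were called, with a median log2 fold change of -0.08. At an unadjusted p under 0.05 there were 2 (7.69%, against 14.5% of all genes). The 2 were Acsl1, the main acyl-CoA synthetase of liver, and Lpin3. Acsl1 averaged 817 ± 186 CPM in Atp7b-/- and 1240.1 ± 203 CPM in wild type livers (-0.61, SE 0.19, adjusted p = 0.171). Lpin3 averaged 10.8 ± 1.84 CPM in Atp7b-/- and 6.72 ± 1.25 CPM in wild type livers (0.67, adjusted p = 0.258). Next by p-value were Acsl4 (0.46), Fads3 (-0.55), Pgd (0.41) and Oxsm (0.39), with adjusted p-values from 0.348 to 0.489. DESeq2 called 1 gene of this list and limma-voom 0.

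In the list of genes that control lipogenesis, 31 of 31 were measured and 0 were called, with a median of -0.14. At an unadjusted p under 0.05 there were 6 (19.4%, against 14.5% of all genes). Scap, the escort that carries SREBP to its activation, was at 343, 323 and 73.3 CPM in the Atp7b-/- group, against 102, 536 and 562 CPM in the wild type group (-0.64, SE 0.19, adjusted p = 0.135). Insig2, which holds SREBP back in the endoplasmic reticulum, was at 232, 81.7 and 596 CPM in the Atp7b-/- group, against 295, 75.9 and 52.1 CPM in the wild type group (1.20, SE 0.38, adjusted p = 0.187). In Scap the paired-end library was the lowest of each genotype, and in Insig2 it was the highest. The other 4 were Usf1 (0.62), a factor that binds the E-boxes of lipogenic promoters, Rxra (-0.57), the glucose carrier Slc2a2 (-0.82) and the ChREBP relative Mlxip (-0.57), with adjusted p-values from 0.156 to 0.303. DESeq2 called 2 genes of this list and limma-voom 0.

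Several genes of the fasted state and of the circadian clock, both of which vary with the hour and the meal in mouse liver, varied strongly between libraries, but not all did. Of 13 fasting genes, the member Lpin1 among them, 0 were called. At an unadjusted p under 0.05 there were 4 (30.8%, against 14.5% of all genes), and the median log2 fold change was -0.48. DESeq2 called 2 and limma-voom 1 of them. Pdk4, which restrains glucose oxidation in fasting, was at 5.48, 2.95 and 36.1 CPM in the Atp7b-/- group, against 6.22, 2.46 and 1.48 CPM in the wild type group (1.69, SE 0.42, adjusted p = 0.0818). The log2 fold changes of Ppargc1a, a coactivator induced in fasting, and Cyp4a14, a fatty acid hydroxylase, were -0.88 for Ppargc1a (adjusted p = 0.267) and -2.60 for Cyp4a14 (adjusted p = 0.309). For Cyp4a14 the log2 ratio was -0.084 between the paired-end libraries and -3.60 between the single-end ones.

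Among 17 of 18 clock genes measured, with a median of -0.83, Hlf was called and fell by 0.92 in log2 units (SE 0.18, adjusted p = 0.0323). Hlf, a clock-driven transcription factor, was at 38.2, 40.0 and 31.0 CPM in the Atp7b-/- group, against 67.5, 66.3 and 71.2 CPM in the wild type group. It did not pass with any 1 of the 6 libraries left out, with adjusted p-values from 0.0569 to 0.196. Dbp, another clock output factor, was at 58.1, 231 and 0.999 CPM in the Atp7b-/- group, against 48.6, 286 and 319.9 CPM in the wild type group. Arntl, a core clock gene with the opposite phase, was at 10.8, 0.281 and 43.2 CPM in the Atp7b-/- group, against 3.25, 0.935 and 0.371 CPM in the wild type group. Atp7b-/- library 3 was thus the lowest of the 6 for Dbp and the highest for Arntl. It was also the lowest for Thrsp, Srebf1, Pklr, Fasn, Fads2, Dgat2 and Lpin1. Of all 34 members it was the lowest for 13 and the highest for 7. The other paired-end library, wild type library 1, was the lowest wild type library for Dbp, Srebf1, Pklr, Fasn, Fads2 and Dgat2. For Arntl and Lpin1 it was the highest wild type library. The part of the clock and of feeding in the members' values was not tested.

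**Figure D5:**
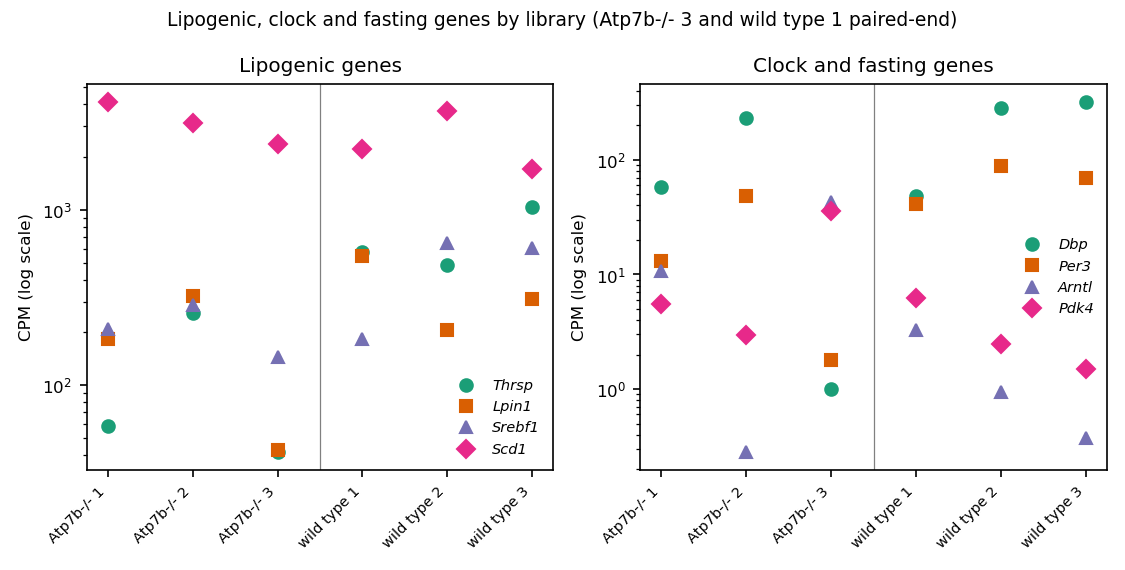
CPM (log scale) of 4 lipogenic genes (left) and of 3 clock genes with the fasting gene Pdk4 (right) in each library, Atp7b-/- libraries left of the line and wild type libraries right of it. In Atp7b-/- library 3 Thrsp (41.5 CPM), Lpin1 (42.8 CPM), Dbp (0.999 CPM) and Per3 (1.79 CPM) are at their lowest and Arntl (43.2 CPM) and Pdk4 (36.1 CPM) at their highest of the 6 libraries.

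Of the cell type marker lists, those of hepatocytes, lower in Atp7b-/- livers, and of erythroid cells, higher, had summed levels that did not overlap between genotypes. With 1 gene of each list left out, Alb or Alas2, the sums overlapped. The levels of Alb alone and of Alas2 alone overlapped between genotypes as well. The 10 hepatocyte markers, Alb among them, summed to 71685 to 77239 CPM in the Atp7b-/- group, against 92692 to 117088 CPM in the wild type group, with 0 of 10 called and 9 of 10 log2 fold changes negative. Without Alb they summed to 21824 to 44564 CPM in the Atp7b-/- group, against 37241 to 50174 CPM in the wild type group, which overlapped. In bulk liver, fewer cells of a type and less RNA per cell cannot be told apart. Of the 8 adipocyte markers 3 were measured and 0 called, with sums of 25.96 to 38.2 CPM in the Atp7b-/- group, against 28.9 to 53.4 CPM in the wild type group. The adipocyte genes Adipoq, Plin1 and Cfd were near the detection limit or at 0 in all single-end libraries. Cfd was at 10.8 CPM in Atp7b-/- library 3 and 14.9 CPM in wild type library 1, the paired-end ones. Lep, Retn and Cidea were also highest in the paired-end libraries, at no more than 2.01 CPM. Lipe was lowest in the paired-end libraries. It was at 20.6, 19.5 and 11.5 CPM in the Atp7b-/- group, against 12.2, 25.2 and 24.7 CPM in the wild type group. Cidec was at 5.83, 6.03 and 5.27 CPM in the Atp7b-/- group, against 11.2, 3.91 and 3.34 CPM in the wild type group. The markers of macrophages (10 genes) summed to 232.8 to 398 CPM in the Atp7b-/- group, against 209.4 to 507.7 CPM in the wild type group, and those of endothelium (10 genes) to 214.1 to 499.2 CPM in the Atp7b-/- group, against 231.6 to 711.9 CPM in the wild type group. The 10 stellate markers summed to 366.3 to 460.8 CPM in the Atp7b-/- group, against 308.4 to 744.3 CPM in the wild type group, where library 1 was highest. The 7 biliary markers summed to 59.9 to 97.7 CPM in the Atp7b-/- group, against 42.6 to 61.1 CPM in the wild type group. The 6 erythroid markers summed to 236.3 to 343.8 CPM in the Atp7b-/- group, against 66.4 to 220.0 CPM in the wild type group. Among them is Alas2, the heme synthesis enzyme of red cell precursors, and without it the sums were 37.2 to 100.3 CPM in the Atp7b-/- group, against 28.7 to 61.5 CPM in the wild type group, which overlapped. The 8 lymphocyte markers summed to 9.12 to 22.7 CPM in the Atp7b-/- group, against 7.41 to 16.8 CPM in the wild type group, and the 9 pancreatic acinar markers to 20.8 to 40.7 CPM in the Atp7b-/- group, against 11.0 to 22.2 CPM in the wild type group. With the edgeR test no gene of these lists was called, with 0 to 3 genes per list at an unadjusted p under 0.05, and their part in the members' values was not tested.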

How the data were processed

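Per the labels' protocols, liver RNA was extracted with Trizol, cleaned on columns and sequenced with reads of 54 bases. The authors deposited 1 table of raw gene counts with a column for each of the 6 libraries, and all its value columns were matched to libraries by their labels. Per the submitters' processing notes, STAR 2.4, featureCounts (no version) and edgeR 3.8 were used with build GRCm38. What annotation release was used, and how strand, multi-mapping reads and read pairs were treated, was not given in the sources used here. GENCODE vM21 gave symbols to 40340 of 41388 identifiers, of which 16258 had a count of 0 in every library. From the deposited counts, edgeR 4.0.16 in R 4.3.3 fitted all genes that passed its expression filter (minimum count of 10) with TMM scaling, a robust quasi-likelihood test on layout plus genotype, and p-values adjusted by Benjamini-Hochberg, called under 0.05. Standard errors were taken as the size of the log2 change over the root of the F statistic. The fit was also run on simulated counts with the same dispersion for every gene, which does not measure its error rate on these libraries. TMM factors were 0.912 to 1.12, and the mitochondrial share of counts was 7.74% to 8.14% in paired-end and 2.5% to 4.15% in single-end libraries. DESeq2 1.42.0, limma-voom (limma 3.58.1), other scalings, no filter, other covariates and left-out libraries were alternatives. Values in every library are given for the members with the 14 smallest p-values, the regulators and the 3 with the smallest p-values for the layout difference, with Scd1 and Mogat1 added after their values were seen. Other lists name up to 6 (pathway) or 4 genes with the smallest p-values, with Dbp, Arntl, Per3 and the cell type genes added after their values were seen, and 1 fasting gene that this rule names is not reported here. The members and lists were chosen with earlier results of these data known. Overlaps of exons were read from GENCODE vM21 and promoters from RefSeq.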

Additional observations from a re-analysis of the deposited data

How the results depend on the processing

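No paired analysis was possible because the replicate numbers only follow the accession order, so none links a library of 1 genotype to a library of the other. Over 16 alternative settings, 510 values of single members kept their direction and their side of the threshold, 12 newly passed it and 21 changed sign. The count of members called was 5 with DESeq2, 4 with no filter on low counts, 1 without Atp7b-/- library 3 and wild type library 3 together (chosen after seeing the data, and resting on wild type library 2 alone, since the layout term takes up wild type library 1), and 0 to 1 with each library left out. It was 0 when layout was dropped or replaced by labelled sex, as for all genes. An unadjusted p under 0.05 was then found for 1 of 34 members (545 of 12988 genes) and 3 of 34 members (381 of 12988 genes), respectively. The members' median lay between -0.36 and -0.093 with each library left out. Members that did not overlap numbered 14 in the single-end libraries alone and 9 without the 2 libraries. For the difference between layouts 1 member was called with DESeq2, 2 with no filter (Lpin1 and Lpin2) and 0 to 1 with each single-end library left out. Called genes of the other lipogenic enzymes numbered 1 with DESeq2 and 1 with no filter, and those of the control list 2 with DESeq2, 3 with no filter and 0 to 1 with a library left out. Fasting genes called numbered 2 with DESeq2, 1 with limma-voom, 1 with no filter, 1 in the single-end libraries alone, 2 without the 2 libraries, and 0 to 1 with a library left out. Clock genes called numbered 5 with no filter, 0 when layout was dropped, when labelled sex replaced it, in the single-end libraries alone and without the 2 libraries, and 0 to 4 with a library left out. In the single-end libraries alone the log2 fold changes of Scd2 (-0.032), Elovl6 (0.16) and Gpat3 (0.14) changed sign. Without the 2 libraries, against that 1 wild type library, those of Scd1 (-0.024), Scd2 (-0.18), Elovl6 (0.084), Gpat4 (0.17), Agpat2 (0.35) and Lpin1 (0.29) did. With each library left out, log2 fold changes ran from -0.39 to 0.029 for Acly, -0.36 to 0.31 for Agpat2, -0.041 to 1.19 for Scd2, -0.38 to 0.17 for Elovl6, -0.43 to 0.15 for Gpat3, -0.36 to 0.26 for Acaca and -0.58 to 0.14 for Acacb. The cause was not tested.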
